A study of Mus musculus with 55 samples.

Results

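The report covers 10 chemokine genes that draw monocytes and neutrophils: Ccl2, Ccl7, Ccl12, Ccl3, Ccl4, Cxcl1, Cxcl2, Cxcl5, Cxcl12 and Cx3cl1. They were chosen by symbol, with earlier results of these data known. All 10 were found by Ensembl identifier among the 56941 genes counted at day 7 and the 57186 counted at day 28. Infarcted left ventricle of the mouse strain C57BL/6J was sequenced for RNA after a myocardial infarction in all groups, and the series asks how type 1 and type 2 diabetes differ in their immune and metabolic gene expression after it. By the sample titles the tissue was taken at day 7 (8 libraries each without diabetes, with type 1 and with type 2 diabetes) or day 28 (11, 10 and 10 in the same order). The design text describes permanent coronary ligation and names day 7 only. Library names carry Ctrl for non-diabetic, hi STZ for type 1 and lo STZ HFFD for type 2 samples, so the agents behind each model cannot be told apart from the type of diabetes. Age and sex are not in the labels used here, and the labels do not say that libraries are separate animals, so p-values measure the spread between these libraries.

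Chemokines are small secreted proteins that guide white blood cells by binding receptors on their surface. After an infarct, neutrophils enter first, guided by ligands of Cxcr2, and inflammatory monocytes follow, guided by ligands of Ccr2, before both give way to scar-building cells. Ccl2, Ccl7 and Ccl12 bind Ccr2, Cxcl1, Cxcl2 and Cxcl5 bind Cxcr2, Ccl3 and Ccl4 are macrophage inflammatory proteins that draw monocytes and lymphocytes, Cxcl12 holds Cxcr4-bearing cells in tissue, and Cx3cl1 is a membrane-bound ligand of Cx3cr1 on monocytes and macrophages.

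Levels are CPM, the count of a gene divided by the library size in mega (M) counts, with library sizes scaled by TMM, a method that makes libraries of different makeup comparable. Library totals ran from 10.8 to 51.2 M counts at day 7 and from 48.1 to 92.9 M at day 28, and the shallowest library was in the day 7 non-diabetic group. Among day 7 libraries type 1 replicate 4 was unlike its group, with the highest summed neutrophil (790.3 CPM) and B cell (3871 CPM) markers and the lowest summed cardiomyocyte markers (2045 CPM) of its group. Type 2 replicate 4 at day 28 had the highest summed B cell markers (7197 CPM) and the lowest summed cardiomyocyte markers (12140 CPM) of its group. None of the marker genes of any listed cell type was at 0 in every library of a group, heart muscle genes were abundant in all groups, and all 10 chemokines passed the filter on low counts on both days.

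At day 7, 6 of the 10 chemokines rose in type 1 diabetic infarcts against non-diabetic infarcts, and none fell. They were all 3 Ccr2 ligands and all 3 Cxcr2 ligands, with fitted rises of 2.13-fold to 4.14-fold. Over all 18165 genes tested, 11.1 percent rose and 11.4 percent fell (edgeR quasi-likelihood test, Benjamini-Hochberg adjusted p at or under 0.05), and none of the 10 chemokines fell at an unadjusted p under 0.05 or by DESeq2 or limma-voom. The median log2 change of the 10 was 1.14, beside -0.011 over all genes.

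Among the Ccr2 ligands at day 7, Ccl2, the main monocyte attractant, had a lowest, median and highest level of 6.34, 13.2 and 30.1 CPM in non-diabetic libraries, against 25.7, 47.9 and 83.0 CPM in type 1. Of the type 1 libraries 6 of 8 lay above every non-diabetic library, and all 8 lay above the mean log2 CPM of the non-diabetic group (called its mean from here on). The fitted log2 change was 1.73 (SE 0.302, adjusted p = 0.000448). Ccl7, which is encoded beside Ccl2 on chromosome 11 and also acts through Ccr2, went from 4.05, 9.76 and 20.4 CPM to 17.9, 39.6 and 79.4 CPM, a log2 change of 1.97 (SE 0.345, adjusted p = 0.000451). Only 1 type 1 library lay inside the non-diabetic range of Ccl7. Ccl12, a mouse Ccr2 ligand with no human gene of the same name, went from 6.16, 8.43 and 14.1 CPM to 13.03, 18.3 and 28.9 CPM, a log2 change of 1.09 (SE 0.201, adjusted p = 0.000659), and 7 of 8 type 1 libraries lay above all non-diabetic ones. In bulk tissue, fewer cells of a type and less RNA per cell cannot be told apart, and the same holds for more of either.

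The Cxcr2 ligands had lower levels per kilobase of exon than the Ccr2 ligands at day 7. Cxcl5, a neutrophil attractant made by epithelial and other stromal cells as well as by leukocytes, had 1.35, 4.67 and 5.89 CPM in non-diabetic libraries and 7.86, 13.7 and 37.5 CPM in type 1. It was the single chemokine of the 10 whose groups did not overlap, which held for 0.617 percent of all genes in that direction. Its log2 change was 2.00 (SE 0.375, adjusted p = 0.000777). Cxcl2, a ligand made early by macrophages and neutrophils, went from 0.425, 0.784 and 1.202 CPM to 1.195, 2.23 and 8.51 CPM, which rests on 8 to 48 reads per non-diabetic library and 50 to 447 per type 1 library. Its log2 change was 2.05 (SE 0.430, adjusted p = 0.00179), and 7 of 8 type 1 libraries lay above all non-diabetic ones. Cxcl1, made by many cell types on inflammatory signalling, went from 1.71, 2.28 and 3.78 CPM to 2.87, 4.98 and 10.0 CPM, with a log2 change of 1.18 (SE 0.269, adjusted p = 0.00319) and again 7 of 8 libraries above the control range.

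**Figure D1:**
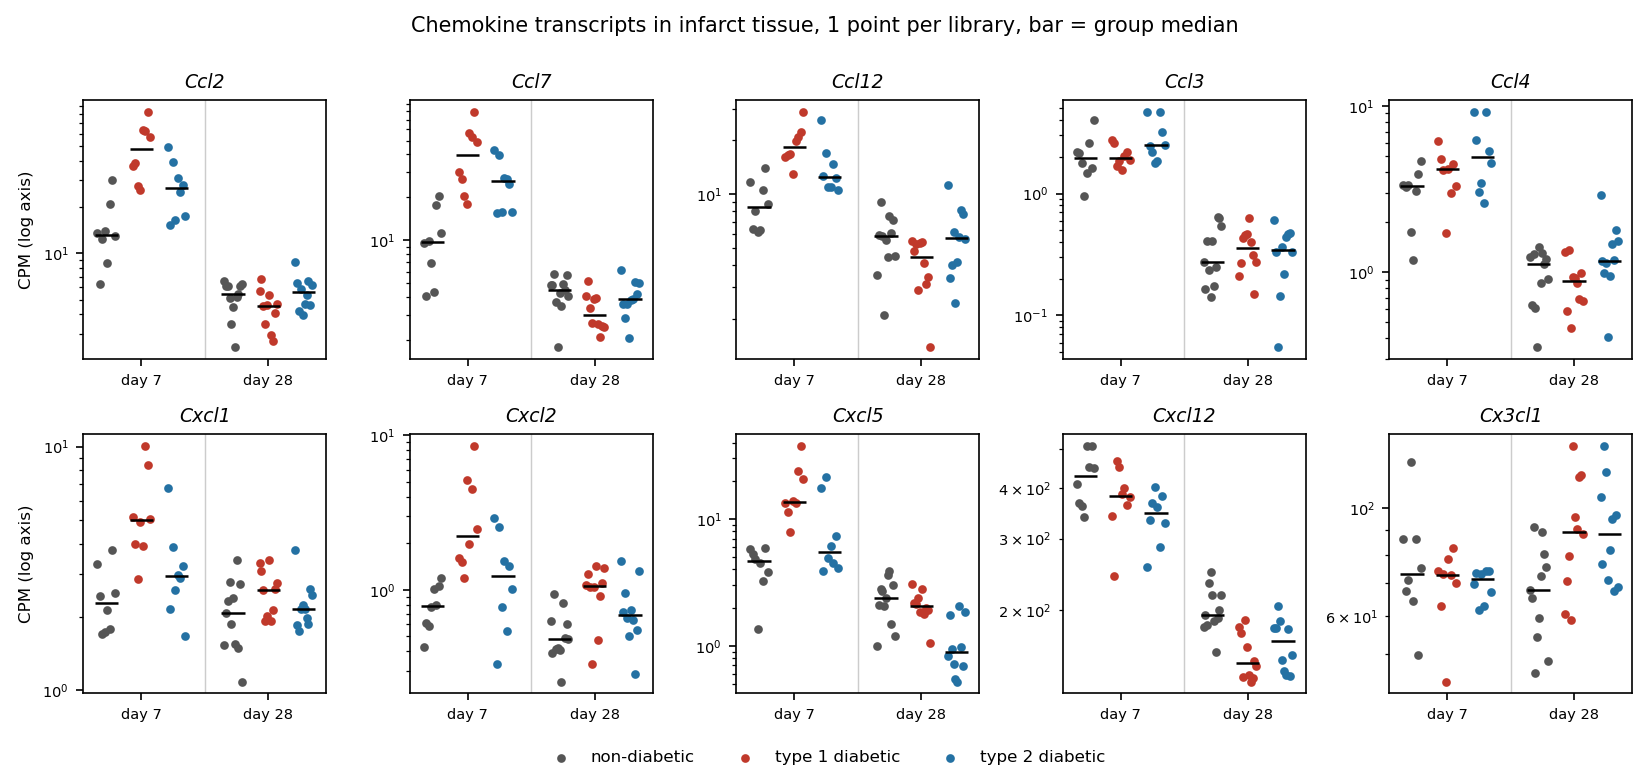
Level of each chemokine in CPM (log axis), with 1 point per library, a bar at the group median, and the groups coloured by diabetic state at day 7 and day 28. All 8 type 1 libraries of day 7 lie above the non-diabetic range for Cxcl5, and 6 or 7 of 8 do for Ccl2, Ccl7, Ccl12, Cxcl1 and Cxcl2.

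The other 4 chemokines did not pass the test in type 1 tissue at day 7. Ccl3, made by macrophages and other leukocytes, had medians of 1.96 CPM in both groups, with a log2 change of -0.04 (95 percent interval -0.51 to 0.43). Ccl4, its neighbour in the genome, was at 0.35 (interval -0.20 to 0.91). Cxcl12, made by stromal and endothelial cells, was at -0.16 (interval -0.39 to 0.07), and Cx3cl1, made by endothelial cells and neurons, at -0.16 (interval -0.42 to 0.10). These intervals leave out a change of 2-fold in either direction for each of the 4.

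Most tested markers of neutrophils and monocytes also rose in type 1 tissue at day 7, while 1 of 7 T and NK cell markers did. In type 1 tissue 7 of 9 tested neutrophil markers rose (S100a8 by 2.56 on the log2 scale, adjusted p = 0.00527), 9 of 10 monocyte markers rose and 1, the matrix gene Fn1, fell, 7 of 12 macrophage markers rose, 4 of 7 resident macrophage and 3 of 5 erythroid markers rose, and 8 of 10 fibroblast and 4 of 8 mural cell markers fell. Summed neutrophil markers ran from 38.8 to 259.5 CPM in non-diabetic libraries, from 93.4 to 790.3 CPM in type 1 and from 73.6 to 151.8 CPM in type 2. Summed monocyte markers ran from 7064 to 12560 CPM in non-diabetic, 4914 to 9840 CPM in type 1 and 6636 to 10450 CPM in type 2 libraries. They ran from 209 to 386 CPM, 408 to 727 CPM and 369 to 552 CPM when Fn1, which made up most of the sum, was left out after its values had been seen. Summed macrophage markers ran from 4025 to 5981 CPM, 5402 to 6879 CPM and 5535 to 6922 CPM, and summed fibroblast markers from 49350 to 63530 CPM, 25970 to 53000 CPM and 27530 to 49290 CPM. With the mean log2 CPM of the macrophage markers as a covariate, 0 of all 18165 genes passed in either direction, so the loss of the 6 calls is not particular to the chemokines. Ccl2 was then at 1.02 (SE 0.436, adjusted p = 0.318), Ccl7 at 1.19, Ccl12 at 1.05, Cxcl5 at 1.59, Cxcl1 at 0.72 and Cxcl2 at 0.77. With cardiomyocyte markers as the covariate all 6 passed, with Cxcl2 at 1.26 (adjusted p = 0.0336) and the other 5 within 1.5-fold of their values. All 6 also passed without any single library, at 1.59 to 1.98 for Ccl2, 1.78 to 2.20 for Ccl7, 0.99 to 1.22 for Ccl12, 1.76 to 2.11 for Cxcl5, 1.70 to 2.18 for Cxcl2 and 1.02 to 1.31 for Cxcl1. The part of cell makeup in these rises was not tested.

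In type 2 diabetic infarcts at day 7, 2 of the 10 chemokines rose against non-diabetic infarcts and none fell, where 3.85 percent of all genes rose and 3.5 percent fell. The risen ones were the Ccr2 ligands Ccl7 and Ccl12. Ccl7 had a lowest, median and highest level of 15.6, 26.0 and 42.9 CPM in type 2 libraries, with 5 of 8 above every non-diabetic library and a log2 change of 1.30 (SE 0.340, adjusted p = 0.0207). Ccl12 had 10.6, 12.5 and 26.0 CPM, with 3 of 8 above every non-diabetic library and a log2 change of 0.67 (SE 0.1997, adjusted p = 0.0399). Both had all 8 type 2 libraries above the non-diabetic mean. Neither passed with libraries summed by the first number of their name. For none of the 10 chemokines did type 2 lie wholly above non-diabetic tissue, as it did for 1.24 percent of all genes. Type 2 replicate 1 was the highest library of its group for 6 of the 10 chemokines, and without it Ccl7 was at 1.17 (adjusted p = 0.0501). Ccl12 lost its call without type 2 replicates 1, 3 or 6 or non-diabetic replicates 2, 3, 4, 5 or 8, with values down to 0.50. It was also at 0.45 (adjusted p = 0.0932) by limma-voom, and with the macrophage covariate Ccl7 was at 0.59 and Ccl12 at 0.63, neither past the test, in a fit where 45 of all 18165 genes were called higher and 2 lower. Cxcl2, at 0.75 in the fit without it, was then at -0.35. Of the cell markers, 7 of 7 T and NK cell, 5 of 10 monocyte, 5 of 12 macrophage (among them Adgre1) and 2 of 9 neutrophil markers rose in type 2 tissue, and their part in these values was not tested.

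The remaining 8 chemokines did not pass in type 2 tissue at day 7. Ccl2 had 15.2, 26.5 and 48.9 CPM and a log2 change of 0.89 (adjusted p = 0.0659), and Cxcl5 had 3.87, 5.51 and 21.3 CPM and a change of 0.97 (adjusted p = 0.107). Ccl2 passed in 3 of 24 fits with a library left out. It was at 1.13 without non-diabetic replicate 7, the highest library of its group for 5 of the 10 chemokines. Cxcl2 had 0.333, 1.23 and 2.90 CPM and was at 0.75 (adjusted p = 0.306), and Cxcl1 was at 0.42 (adjusted p = 0.368). The 95 percent intervals of Ccl2 (0.31 to 1.47) and Cxcl5 (0.25 to 1.69) held changes of more than 2-fold. Ccl4 was at 0.82 (adjusted p = 0.0787) by edgeR and passed by DESeq2 (adjusted p = 0.0336), and Ccl3 was at 0.45 (adjusted p = 0.263). Cxcl12 was at -0.32 (adjusted p = 0.0941) and passed as lower with the cardiomyocyte covariate (-0.35, adjusted p = 0.0314), and it was the only 1 of the 10 that was lower at an unadjusted p under 0.05.

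The direct comparison of both diabetic groups at day 7 called 0 of the 10 chemokines by edgeR, where 2.71 percent of all genes differed. At an unadjusted p under 0.05, 5 were higher in type 1 (Ccl2, Ccl12, Cxcl1, Cxcl2 and Cxcl5) and 1 was lower (Ccl3). DESeq2 called 1, Cxcl2, and limma-voom with quality weights called 6 as higher in type 1, where it called 1488 of all 18165 genes higher and 1439 lower. Cxcl2 had the largest difference, 1.30 on the log2 scale (SE 0.410, adjusted p = 0.0814), with all 8 type 1 libraries above the type 2 mean and 3 above every type 2 library. Cxcl5 was at 1.03 (adjusted p = 0.115), Ccl2 at 0.84 (adjusted p = 0.114), Cxcl1 at 0.76 (adjusted p = 0.112), Ccl7 at 0.67 (adjusted p = 0.263) and Ccl12 at 0.42 (adjusted p = 0.237). The 95 percent intervals ran from 0.49 to 2.10 for Cxcl2 and from 0.27 to 1.41 for Ccl2, so the missed threshold does not show that both groups were alike. Both diabetic groups share the non-diabetic controls, so their changes stand side by side here and are not counted as overlap.

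**Figure D2:**
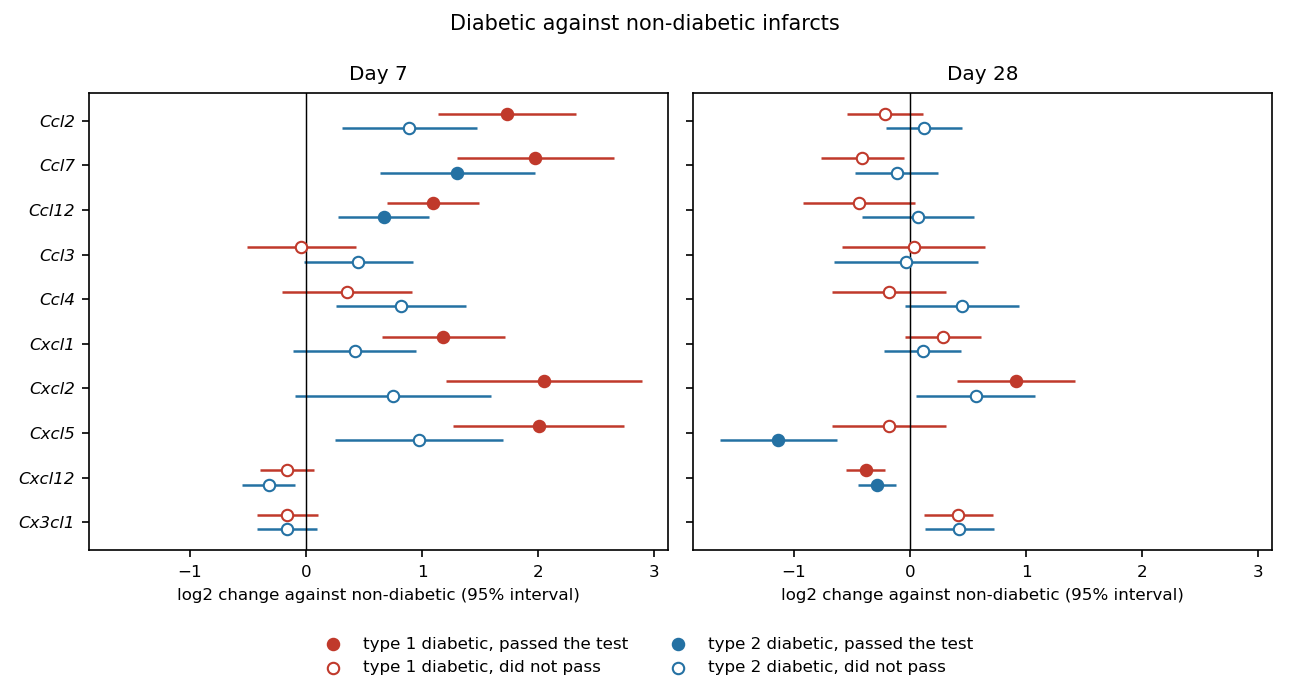
Log2 change of each chemokine in type 1 and type 2 diabetic against non-diabetic infarcts at day 7 and day 28, with 95 percent intervals and filled points for those past the test. The 6 filled type 1 points of day 7 lie between 1.09 and 2.05, while those of day 28 lie at 0.91 for Cxcl2 and -0.38 for Cxcl12.

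Cxcl1 and Cxcl2 lie next to each other on chromosome 5 and both rose in type 1 tissue at day 7, so the 250 bases before their RefSeq start sites are shown (GRCm38.p6). The Cxcl1 stretch is chr5:90890995-90891244 and the Cxcl2 stretch chr5:90903649-90903898, both on the plus strand. Capitals mark a match to the NF-kB consensus, the site bound by the transcription factors that inflammatory cytokines switch on.
Cxcl1: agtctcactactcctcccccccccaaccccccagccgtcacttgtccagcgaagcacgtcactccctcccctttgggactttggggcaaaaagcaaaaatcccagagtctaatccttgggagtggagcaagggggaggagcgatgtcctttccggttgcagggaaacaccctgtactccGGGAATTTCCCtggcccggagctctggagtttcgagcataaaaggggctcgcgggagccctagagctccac
Cxcl2: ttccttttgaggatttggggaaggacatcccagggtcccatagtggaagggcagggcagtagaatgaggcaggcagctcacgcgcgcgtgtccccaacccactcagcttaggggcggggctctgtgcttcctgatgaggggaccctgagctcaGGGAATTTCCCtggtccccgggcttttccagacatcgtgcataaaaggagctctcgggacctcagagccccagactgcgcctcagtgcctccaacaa
The match starts 71 bases before the start of Cxcl1 and 97 before that of Cxcl2, and each holds 2 overlapping matches when both strands are read. Both promoters share a run of 14 bases, gggaatttccctgg. A match to this consensus stood in 3.9 percent of 32851 mouse promoter windows of the same length, and in 2 of the 6 chemokines with a promoter in the table. The windows of Ccl12, Ccl3, Cxcl12 and Cx3cl1 held none, and none of the 6 held the AP-1 motif TGANTCA, which stood in 6.75 percent of all windows. A match is a stretch of letters and not a measured binding site.

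At day 28 no Ccr2 ligand passed the edgeR test in either diabetic group, while limma-voom called Ccl7 lower in type 1. In type 1 infarcts 1 chemokine rose (Cxcl2) and 1 fell (Cxcl12) against non-diabetic infarcts, where 2.6 percent of all genes rose and 1.41 percent fell. In type 2 infarcts 2 fell (Cxcl5 and Cxcl12) and none rose, where 7.21 percent of genes rose and 3.5 percent fell. For the rises in type 2, edgeR had 2 at an unadjusted p under 0.05 (Cxcl2 and Cx3cl1), and DESeq2 and limma-voom called 1 each, Cx3cl1. The median log2 change of the 10 was -0.18 in type 1 and 0.09 in type 2.

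Cxcl12 fell in both diabetic groups at day 28. Its lowest, median and highest levels were 156.8, 193.6 and 247.7 CPM in non-diabetic, 132.7, 147.5 and 188.2 CPM in type 1 and 136.8, 167.0 and 204.2 CPM in type 2 libraries. All 10 type 1 libraries lay below the non-diabetic mean and 6 lay below every non-diabetic library, with a log2 change of -0.38 (SE 0.0845, adjusted p = 0.0085) that passed without any single library but not with libraries summed by the first number of their name (-0.33, adjusted p = 0.30). In type 2 tissue 5 of 10 libraries lay below every non-diabetic one, and the change was -0.28 (SE 0.0844, adjusted p = 0.028). The type 2 call was lost without non-diabetic replicates 4 or 5 or type 2 replicates 6, 7 or 9, with values from -0.27 to -0.25. It was also lost with the cardiomyocyte covariate (-0.25, adjusted p = 0.0632) and with the macrophage covariate (-0.16, adjusted p = 0.307). Summing libraries by the first number of their name ended the type 2 call too. Of cells known to make Cxcl12, summed fibroblast markers ran from 7350 to 12630 CPM in non-diabetic, 9302 to 14620 CPM in type 1 and 7420 to 15720 CPM in type 2 libraries, and summed endothelial markers from 1316 to 1638 CPM, 1412 to 1800 CPM and 1439 to 2055 CPM.

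Cxcl5 had the largest change at day 28, a fall in type 2 tissue. Its levels were 0.988, 2.39 and 3.89 CPM in non-diabetic, 1.04, 2.05 and 3.04 CPM in type 1 and 0.521, 0.885 and 2.07 CPM in type 2 libraries. Of the type 2 libraries 7 of 10 lay below every non-diabetic library and all 10 lay below the non-diabetic mean, with a log2 change of -1.13 (SE 0.257, adjusted p = 0.00395), a level 0.456 times that of the controls. The call held without any single library, at -1.29 to -1.04, and was lost when libraries were summed by the first number of their name (-1.04, adjusted p = 0.086). Type 1 exceeded type 2 tissue by 0.95 (SE 0.261, adjusted p = 0.0385), where 1.19 percent of all genes were higher and 2.03 percent lower, and all 10 type 1 libraries lay above the type 2 mean. That call was lost without any type 1 library other than replicates 7 and 10, or without any type 2 library other than replicates 2, 7 and 10, at 0.87 to 0.97. It was lost too with no filter on low counts and with libraries summed by the first number of their name. No other chemokine passed between the diabetic groups at day 28; Ccl4 was the 1 lower in type 1 at an unadjusted p under 0.05 (-0.63, adjusted p = 0.189), and neither DESeq2 nor limma-voom called any lower.

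Cxcl2 was the 1 chemokine that rose at day 28, in type 1 tissue. Levels were 0.255, 0.483 and 0.945 CPM in non-diabetic, 0.332, 1.06 and 1.43 CPM in type 1 and 0.288, 0.69 and 1.54 CPM in type 2 libraries, from 16 to 146 reads each. Of the type 1 libraries 7 of 10 lay above every non-diabetic one, 1 more lay above the non-diabetic mean and the other 2 below it. The log2 change was 0.91 (SE 0.260, adjusted p = 0.0419), and in type 2 it was 0.57 (adjusted p = 0.166). The type 1 call was lost without any non-diabetic library other than replicates 3 and 8, or without any type 1 library other than replicates 1, 4 and 7, at 0.84 to 0.94. Summing libraries by the first number of their name ended it too, as did the replicate block, the macrophage covariate and no filter on low counts. Of 10 tested neutrophil markers edgeR and DESeq2 called 0 in type 1 at day 28, 1 was higher at an unadjusted p under 0.05, and limma-voom called 1 higher (Clec4e, adjusted p = 0.0337). Their sums of 15.5 to 37.7 CPM in non-diabetic and 14.5 to 35.8 CPM in type 1 libraries overlapped.

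The monocyte attractants did not pass by edgeR or DESeq2 in either diabetic group at day 28. Ccl2 had medians of 5.42, 4.55 and 5.61 CPM in non-diabetic, type 1 and type 2 tissue, with log2 changes of -0.21 (interval -0.54 to 0.11) and 0.12 (interval -0.21 to 0.45). Ccl7 had medians of 4.47, 3.02 and 3.86 CPM, and in type 1 its change was -0.41 (interval -0.77 to -0.05, adjusted p = 0.205), which limma-voom called lower (-0.49, adjusted p = 0.0367). Ccl12 had medians of 5.84, 4.45 and 5.68 CPM and changes of -0.44 (adjusted p = 0.326) and 0.07. Thus none of the intervals for Ccl2 or Ccl7 held a rise of 2-fold. Ccl3 had the fewest reads, with medians of 0.274, 0.359 and 0.347 CPM from 3 to 58 reads a library, and its intervals were wide (-0.58 to 0.65 in type 1). Type 2 replicate 1 was the highest library of its group for 7 of the 10 chemokines.

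Cx3cl1 had higher levels in both diabetic groups at day 28 without passing the test by edgeR. Its levels were 45.8, 67.7 and 91.2 CPM in non-diabetic, 58.8, 89.4 and 133.9 CPM in type 1 and 67.5, 88.3 and 134.0 CPM in type 2 libraries. All 10 type 2 libraries lay above the non-diabetic mean and 5 lay above every non-diabetic library, and the log2 change was 0.43 (SE 0.151, adjusted p = 0.0656). DESeq2 gave an adjusted p of 0.04 and limma-voom of 0.0463. In type 1 the change was 0.42 (SE 0.151, adjusted p = 0.109), with 8 of 10 libraries above the control mean, and limma-voom called it (adjusted p = 0.0273). In the type 2 tissue of day 28, 4 of 10 endothelial, 5 of 10 monocyte, 5 of 12 macrophage and 6 of 7 T and NK cell markers rose, and their part in these values was not tested.

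The difference between the diabetic effects of both days was tested itself in a fit of all 6 groups. Day and sequencing project cannot be told apart, but each effect lies within a project. For type 1 diabetes the effect was lower at day 28 for 5 of the 10 chemokines, where 12.5 percent of all genes differed in either direction. The effect on Ccl7 differed by -2.40 log2 units (SE 0.378, adjusted p = 2.29e-05), that on Ccl2 by -1.96 (SE 0.336, adjusted p = 7.09e-05) and that on Ccl12 by -1.55 (SE 0.337, adjusted p = 0.00127). Cxcl5 differed by -2.21 (SE 0.445, adjusted p = 0.00057) and Cxcl1 by -0.91 (SE 0.308, adjusted p = 0.0409), but Cxcl1 did not pass with the cardiomyocyte covariate (-0.74, adjusted p = 0.0989) or with no filter on low counts (adjusted p = 0.0675). Cxcl2, with positive changes on both days, was at -1.14 (adjusted p = 0.111). For type 2 diabetes 2 of the 10 differed, where 1.51 percent of all genes did: Cxcl5 by -2.15 (SE 0.449, adjusted p = 0.00998) and Ccl7 by -1.45 (SE 0.374, adjusted p = 0.0338, and 0.0507 with no filter). Ccl2 was at -0.80 there (adjusted p = 0.21), and Cx3cl1 was at 0.56 for both types of diabetes (adjusted p = 0.0709 and 0.16), which DESeq2 called for type 1 (adjusted p = 0.045).

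To compare levels between genes, CPM was divided by the length in kilobases of all annotated exons of a gene, merged. This length was 8.18 kilobases for Cxcl12, 3.93 for Cx3cl1, 1.14 for Ccl2 and 0.8 for Ccl7. The order of genes depends on the length used, and the length of the transcripts present was not tested. In non-diabetic tissue at day 7 Cxcl12 was highest, at a median of 52.5 CPM per kilobase, and its range did not overlap that of Cx3cl1 (18.6), the next in order. Ccl12 (15.7), Ccl7 (12.2) and Ccl2 (11.6) followed, then Ccl4 (5.00), Ccl3 (2.55), Cxcl5 (2.51), Cxcl1 (1.22) and Cxcl2 (0.379). Neighbours in that order overlapped, apart from Cxcl12 over Cx3cl1 and Cxcl1 over Cxcl2. In type 1 tissue at day 7 the order of the top changed to Ccl7 (49.5), Cxcl12 (46.9), Ccl2 (42.1) and Ccl12 (34.0), whose ranges overlapped each other in turn, with Ccl12 above the range of Cx3cl1 (18.6). In type 2 tissue it ran Cxcl12 (42.5), Ccl7 (32.4), Ccl2 (23.3) and Ccl12 (23.2). At day 28 Cxcl12 (23.7) and Cx3cl1 (17.2) headed non-diabetic tissue, and Cx3cl1 headed both diabetic groups, with 22.7 in type 1 and 22.5 in type 2 tissue. The Ccr2 ligands lay then between 3.76 and 10.9 CPM per kilobase in all 3 groups, and Ccl3 and Cxcl2 were last or next to last in each.

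**Figure D3:**
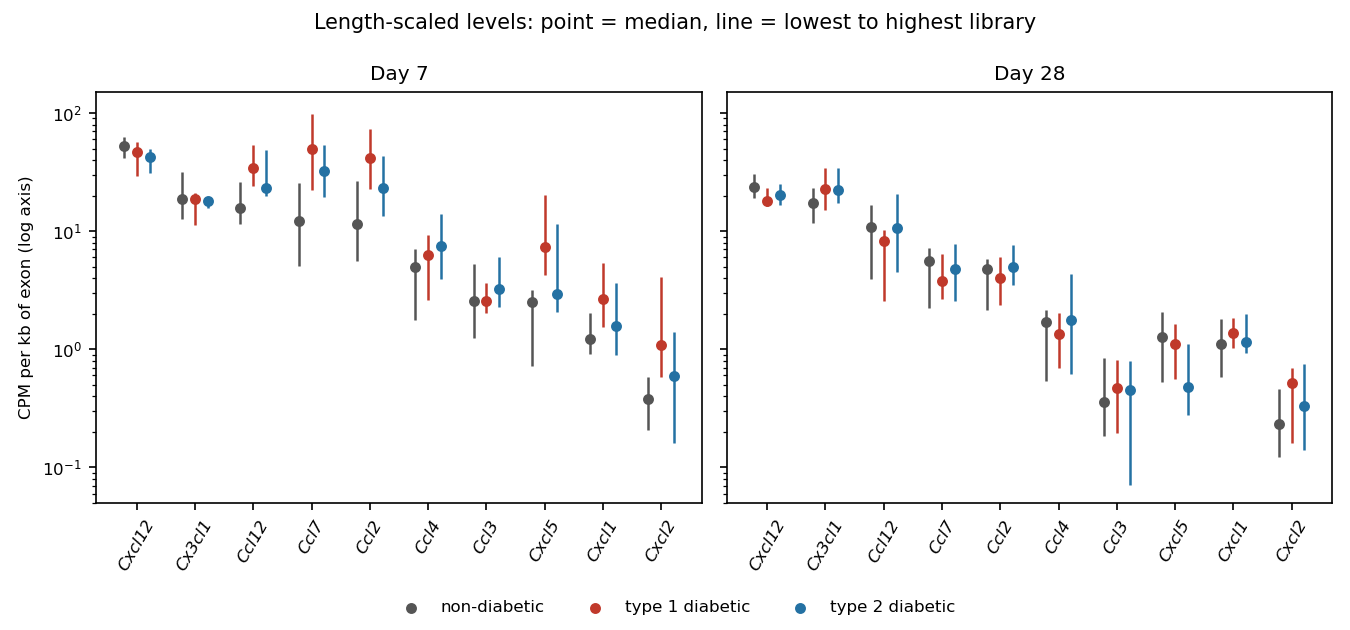
Level of each chemokine in CPM per kilobase of exon (log axis) in the 6 groups, as the median (point) and the lowest to highest library (line), ordered by the level in non-diabetic tissue at day 7. Per kilobase of merged exons, the medians of Ccl7 and Ccl2 lie near that of Cxcl12 in type 1 tissue at day 7 (49.5 and 42.1 beside 46.9). Before division by length they were 39.6 and 47.9 beside 383.0 CPM. Ccl7 and Ccl2 stand well under Cxcl12 at day 28.

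The receptors of these chemokines were read from a list of 7 genes, of which 6 passed the count filter at day 7. In type 1 tissue 4 of the 6 rose and none fell. Cxcr2, the neutrophil receptor, ran from 0.0609 to 2.89 CPM in non-diabetic and from 2.77 to 15.9 CPM in type 1 libraries (log2 change 2.44, SE 0.551, adjusted p = 0.00312). Ccr1, a receptor of Ccl3 and Ccl7, ran from 6.09 to 28.2 CPM and from 35.7 to 96.9 CPM with no overlap (1.82, SE 0.321, adjusted p = 0.000478), and Ccr3 rose by 1.43 on the log2 scale. Ccr2, the monocyte receptor, had medians of 80.6 and 122.6 CPM (0.78, adjusted p = 0.00501). In type 2 tissue 2 of the 6 rose: Ccr2 by 0.70 and Ccr3 by 1.02 log2 units. Neither was called there by limma-voom (adjusted p = 0.0551 for Ccr2 and 0.126 for Ccr3). Ccr1 was higher in type 1 than in type 2 tissue by 1.40 (adjusted p = 0.0196), while Cxcr2 was at 1.07 in type 2 (adjusted p = 0.239). Cx3cr1 did not pass by edgeR or DESeq2 on either day, with -0.17 and 0.16 at day 7 and -0.63 and -0.58 at day 28 for type 1 and type 2, but limma-voom called it lower at day 28 in type 1 (adjusted p = 0.0198) and type 2 (adjusted p = 0.0299).

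At day 28 no receptor rose in type 1 tissue by edgeR, DESeq2 or limma-voom, none at an unadjusted p under 0.05, and in type 2 tissue Cxcr4, the receptor of the fallen Cxcl12, rose by 0.60 log2 units (SE 0.159, adjusted p = 0.0134). The type 1 effects on Cxcr2 and Ccr1 differed between days by -2.38 (adjusted p = 0.0115) and -1.33 (adjusted p = 0.0294). A further list held 5 atypical receptors, which bind ligands without the usual signalling. Of these, Ackr1 rose by 1.11 and Ackr4 fell by 0.74 log2 units in type 1 tissue at day 7. In type 2 tissue at day 28 Ackr1 rose by 0.70. The Ackr1 values rested on the libraries that stood apart: without type 1 replicate 4 it was at 0.38 (adjusted p = 0.253) at day 7, and without type 2 replicate 4 at 0.49 (adjusted p = 0.124) at day 28.

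Other chemokines were read from lists of CC and of CXC and C family members. Of 10 other CC chemokines tested at day 7, 4 rose in type 1 tissue, led by Ccl8 (1.68), Ccl9 (1.52) and Ccl6 (1.87), and 5 rose in type 2 tissue, led by Ccl5 (1.03), a T cell attractant, with Ccl8 at 0.86 and the eosinophil attractant Ccl11 at 2.34. Of 10 other CXC and C chemokines, 5 rose in type 1 tissue. Among them were the platelet chemokines Pf4 (1.48) and Ppbp (2.15) and the Cxcr2 ligand Cxcl3 (3.29). In type 2 tissue 3 rose, Cxcl9 (1.46), Cxcl10 (1.00) and Cxcl3 (2.51). By limma-voom neither Ccl11 (adjusted p = 0.101) nor Cxcl3 (adjusted p = 0.255) passed in type 2 tissue at day 7. Cxcl3 had too few counts to be tested at day 28. At day 28 neither list had a rise in type 1 tissue by edgeR, where 1 CC chemokine, Ccl17 (0.89, adjusted p = 0.0628), was higher at an unadjusted p under 0.05 and by DESeq2 and limma-voom, and no CXC or C chemokine was. In type 2 tissue of day 28, where none of the 10 monocyte and neutrophil attractants rose, 6 of 10 CC chemokines did, led by Ccl5 (1.19), Ccl9 (0.94) and Ccl17 (1.12), and so did 4 of 9 CXC and C chemokines, among them Cxcl9 (1.26), Cxcl10 (0.80) and Cxcl16 (0.48), which attract T cells.

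Cytokines that switch on these genes were measured beside them. Of 7 tested cytokine inducers 4 rose in type 1 tissue at day 7, with Il6 at 1.40 (adjusted p = 0.00941), Il33 at 0.60 and Il1b at 1.21 (adjusted p = 0.0337). DESeq2 called the same number and limma-voom 1, Il6, and 4 of the single-library omissions ended the call of Il1b, which was at 0.96 (adjusted p = 0.0976) without type 1 replicate 7. None passed in type 2 tissue of day 7 or in either group at day 28 by edgeR, DESeq2 or limma-voom, and 1, 1 and 2 were higher at an unadjusted p under 0.05. A list of 12 genes induced by NF-kB as feedback or adhesion targets was read too. In type 1 tissue at day 7, 4 of them rose (Vcam1 by 0.26, Nfkbie by 0.36 and Nfkbia by 0.57, with Tnfaip3). Nfkb1 was lower there by DESeq2 (adjusted p = 0.0406) and limma-voom (adjusted p = 0.0456), but did not pass by edgeR (adjusted p = 0.0639). In type 2 tissue at day 7 none rose by any of the 3 tools or at an unadjusted p under 0.05. At day 28, 1 rose in type 1 (Nfkbia, 0.51) and 4 in type 2, led by Vcam1 (0.85), Nfkbia (0.53) and Nfkbiz (0.41).

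**Figure D4:**
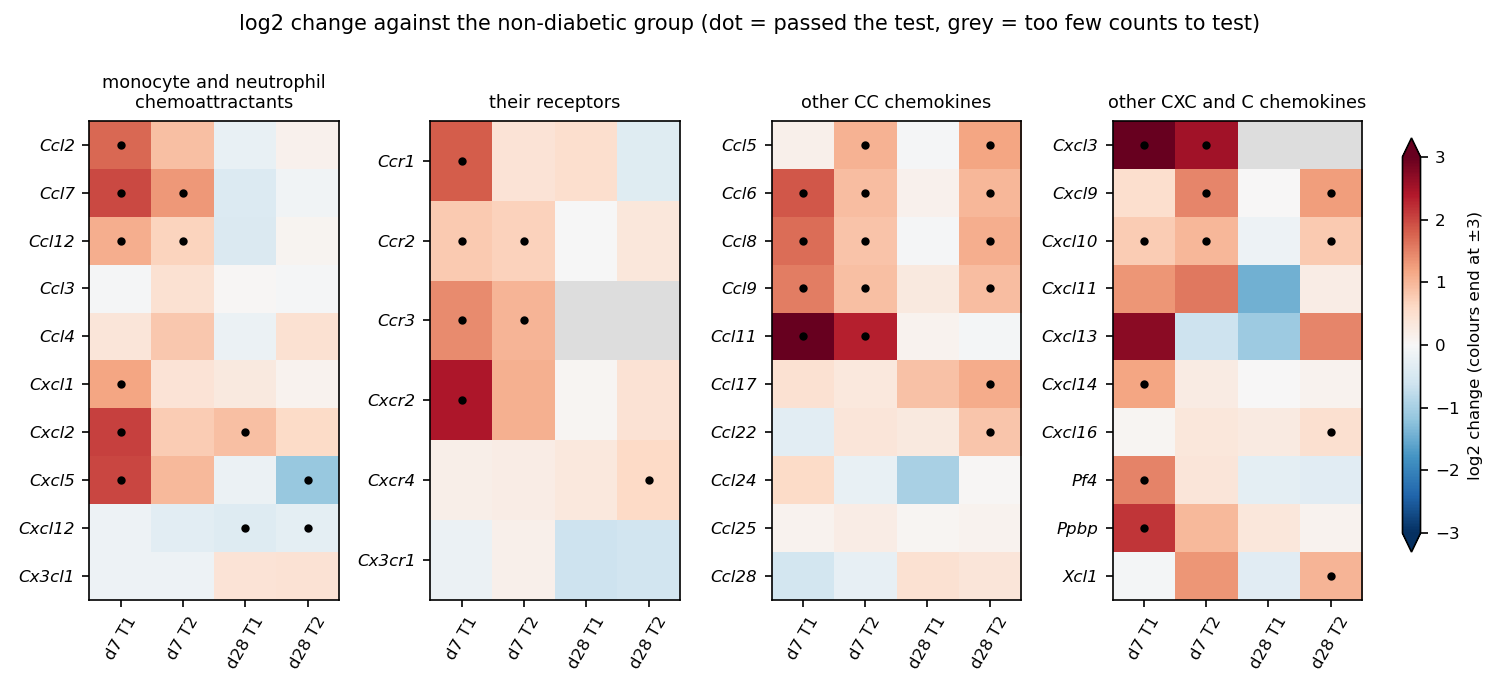
Log2 change of the chemokines, their receptors and other chemokines in type 1 and type 2 against non-diabetic infarcts at day 7 and day 28. A dot marks a change that passed the test, and grey marks counts too low to test. The dots of the Ccr2 ligands stand at day 7, for Ccl2, Ccl7 and Ccl12 in type 1 and for Ccl7 and Ccl12 in type 2. Those of Cxcl1, Cxcl2 and Cxcl5 stand at day 7 in type 1, and at day 28 for Cxcl2 (type 1) and Cxcl5 (type 2). Cxcl3, another Cxcr2 ligand, has dots at day 7 in both types. The dots of Ccl5 and Cxcl9 stand in type 2 tissue on both days.

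Levels of several chemokines moved together between libraries of a group, within families and across them. These correlations are of log2 CPM with the group means taken out, over 24 libraries at day 7 and 31 at day 28, and describe libraries that also share depth and cell makeup. Ccl2 and Ccl7 had a Pearson r of 0.963 (Spearman 0.954) at day 7 and 0.765 (0.769) at day 28, and Ccl7 and Ccl12 had 0.808 and 0.803. Ccl3 and Ccl4 had 0.743 at day 7 and 0.377 at day 28. Cxcl1 and Cxcl5 had 0.798 at day 7, Cxcl1 and Cxcl2 had 0.644, and Cxcl2 and Cxcl5 had 0.673, with 0.0615 for the last at day 28. Across families at day 28, Ccl12 and Ccl4 had 0.701, Ccl7 and Ccl4 had 0.696 and Ccl2 and Cxcl2 had 0.543, above Ccl2 and Ccl12 at 0.463. The lowest r at day 7 was that of Ccl4 and Cxcl12, at -0.457.

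**Figure D5:**
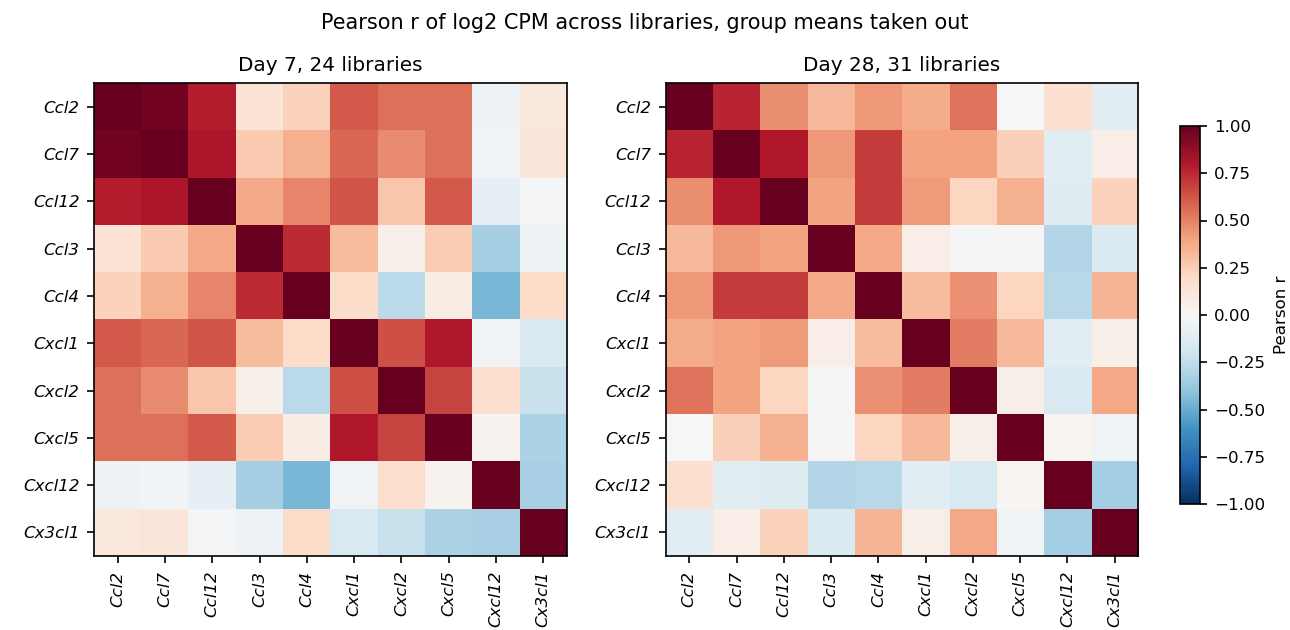
Pearson r of log2 CPM between each pair of chemokines with group means taken out, at day 7 (24 libraries) and day 28 (31 libraries). The Ccr2 ligands Ccl2, Ccl7 and Ccl12 form a block of high r at day 7, with 0.963 for Ccl2 and Ccl7.

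Among the 12366 annotated genes of day 7 whose average log2 CPM reached 1, the nuclear transport gene Ran was closest to Ccl2 after Ccl7 (r = 0.919). Ran was also closest to Ccl7 after Ccl2 (0.919), followed by Kpnb1 (0.904). Cxcl2 stood closest to Srgn (0.912), a granule proteoglycan of blood cells, and Clec4d (0.866), a receptor of myeloid cells. Cxcl5 stood closest to the cystine transporter gene Slc7a11 (0.853), Ccl4 to Ier5 (0.876), Ccl12 to Zdhhc13 (0.838) and Cxcl12 to the growth factor receptor gene Egfr (0.876). At day 28 Ccl12 stood closest to the complement receptor gene C3ar1 (0.806, Spearman 0.626), Cxcl1 to Isg15 (0.732) and Fos (0.718), Cxcl12 to S1pr3 (0.729), and Ccl4 to Rab3il1 (0.83). Cx3cl1 had the closest partners of that day in Emilin1 (0.926), Hivep3 (0.924) and Mrc2 (0.922). Such likeness is given as a description, with no test.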

How the data were processed

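The authors deposited raw counts by Ensembl identifier from infarcted left ventricle, with 1 table a day, and these were used unchanged. The submitters' processing notes name mm39 as build and DESeq2 as a tool, and per the labels' protocols the library kit kept strand. Neither aligner nor counter, strand setting or annotation version is given in the sources used here. Symbols, chromosomes and exon lengths came from GENCODE M21 (GRCm38) by Ensembl identifier (51948 and 51880 genes had a symbol), and no exon of the 10 chemokines overlaps another gene there. Of counts from 1 to 49, 76.4 percent (day 7) and 75.2 percent (day 28) were even, so counting error may be larger than totals imply. Members and gene lists were chosen with earlier results of these data known.

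Counts were tested in R 4.3.3 with edgeR 4.0.16: TMM, filterByExpr (minimum count 10, total 15), glmQLFit and glmQLFTest, Benjamini-Hochberg adjustment over all 18165 (day 7) or 18901 (day 28) genes, called at 0.05, with the 3 groups of a day in 1 fit. The difference between days came from a fit of 6 groups and 20421 genes. The SE is the log2 change over the square root of F, and 95 percent intervals are the change plus and minus 1.96 SE. With this normal quantile they are slightly narrower than the test implies. For Ccl7 in type 1 against type 2 at day 7 the interval was 0.02 to 1.32, with an unadjusted edgeR p of 0.053. Log2 CPM used a prior count of 2. The script was tested on simulated data. Alternatives were RLE scaling, DESeq2 1.42.0, limma-voom with quality weights (limma 3.58.1), a fit of the compared groups alone, no filter on low counts, the replicate number as a block, cardiomyocyte or macrophage markers as a covariate, libraries summed by the first number of their name, and each library left out. From each list of receptors, other chemokines, inducers and targets up to 3 called genes with the smallest p were named per direction, and the others counted. Genes named outside this rule were chosen after their values were seen. They were Cx3cr1, Tnfaip3, Nfkb1, Fn1, Ccl17 in type 1, and Ccr1 and Cxcr2 where set beside a called value. Some results are not reported here. Like genes are the 3 with the highest r per chemokine and day, of which some are named. Promoters are RefSeq sequences.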

Additional observations from a re-analysis of the deposited data

Results flagged for a closer look

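In 4 libraries 5 values lay far from the rest of their group, among 50 combinations of chemokine and group small enough to look at, where chance flags about 5 percent. Cxcl5 was at 1.35 CPM in non-diabetic replicate 4 at day 7, the lowest of its group, and Cx3cl1 at 43.9 CPM in type 1 replicate 4 at day 7. At day 28 type 1 replicate 10 was low for Cxcl5 (1.04 CPM) and for Ccl12 (1.38 CPM), and type 2 replicate 1 was high for Cxcl1 (3.76 CPM).

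The effect of diabetes differed between days by a direct test for 7 values. For type 1 these were Ccl2 (-1.96 log2 units, day 28 minus day 7), Ccl7 (-2.40), Ccl12 (-1.55), Cxcl1 (-0.91) and Cxcl5 (-2.21). For type 2 they were Ccl7 (-1.45) and Cxcl5 (-2.15). Day and sequencing project cannot be told apart.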

How the results depend on the processing

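The number of chemokines called changed as follows. Risen in type 1 at day 7 (6): 0 with the macrophage covariate, under which 0 of all 18165 genes were called. Risen in type 2 at day 7 (2): 1 by limma-voom or with no filter, 4 with the replicate block, 0 with the macrophage covariate or with summed libraries, and 0 to 3 with a library left out; fallen (0): 1 with the cardiomyocyte covariate. Higher in type 1 than type 2 at day 7 (0): 1 by DESeq2, 6 by limma-voom, and 0 to 1 with a library left out. Risen in type 1 at day 28 (1): 2 by limma-voom, 0 with no filter, with the replicate block, with the macrophage covariate or with summed libraries, and 0 to 1 with a library left out; fallen (1): 2 by limma-voom and 0 with summed libraries. Risen in type 2 at day 28 (0): 1 by DESeq2 or limma-voom and 0 to 1 with a library left out; fallen (2): 1 with either covariate, 0 with summed libraries, and 1 to 2 with a library left out. Higher in type 1 than type 2 at day 28 (1): 0 with no filter or with summed libraries, and 0 to 1 with a library left out. Effects that differed between days: for type 1 (5), 4 with no filter and 6 by DESeq2, and for type 2 (2), 1 with no filter. Summing leaves fewer samples and also joins libraries that share a number. The cause of these changes was not tested.

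Some changes turned direction, none of them called; most lay near 0, but Cxcl2 in type 2 at day 7 (0.75) and Ccl4 in type 2 at day 28 (0.45) did not. With the replicate block Ccl3 was at 0.027 in type 1 at day 7 and 0.081 in type 2 at day 28. With the cardiomyocyte covariate Ccl3 was at 0.035 in type 1 at day 7 and 0.025 in type 2 at day 28, Ccl12 at -0.022 in type 2 at day 28, Cx3cl1 at 0.052 between the diabetic groups of day 28, and the difference between days at -0.061 for Ccl3 (type 1) and -0.00080 for Cxcl12 (type 2). With the macrophage covariate Cxcl2 was at -0.35 in type 2 at day 7, Ccl3 at -0.026 in type 1 at day 28, and Ccl2 at -0.021, Ccl12 at -0.39, Ccl4 at -0.070 and Cxcl1 at -0.034 in type 2 at day 28, and Cx3cl1 between the diabetic groups at -0.0027 (day 7) and 0.14 (day 28). Between the same groups Cx3cl1 was at -0.0050 (day 7) with no filter, -0.029 (day 7) with summed libraries and 0.012 (day 28) by limma-voom. With summed libraries Ccl3 at day 28 was at -0.30 in type 1 against non-diabetic and -0.057 against type 2. With a library left out Ccl3 ran from -0.12 to 0.17 in type 1 at day 7, and at day 28 from -0.093 to 0.15 in type 1, from -0.17 to 0.093 in type 2 and from -0.062 to 0.20 between them. Ccl12 ran from -0.084 to 0.16 in type 2 at day 28, Cx3cl1 from -0.033 to 0.076 (day 7) and -0.084 to 0.069 (day 28) between the diabetic groups, and the Cxcl12 difference between days (type 2) from -0.020 to 0.0076.

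Of 2330 values under alternatives, 2171 kept direction and side of the threshold, among them every one with RLE scaling or with only the groups compared. Whether the replicate numbers pair samples is not settled by these values. Of same-numbered pairs, 12 of 24 at day 7 and 7 of 30 at day 28 had a correlation of deviations over 0.1. Their median was 0.090 at day 7 and 0.022 at day 28, beside -0.0068 and 0.0071 for pairs of other numbers. At day 7 20.8 percent and at day 28 12.9 percent of libraries correlated best with their own number. Depth limits Cxcl2 and Ccl3, with as few as 8 and 3 reads in a library.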
